A study of Mus musculus with 12 samples.

Results

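The genes described here are the ligands and receptors of vascular endothelial growth factor (VEGF): the 5 ligand genes Vegfa, Vegfb, Vegfc, Vegfd and Pgf, the 3 receptor tyrosine kinase genes Flt1, Kdr and Flt4, and the 2 neuropilin coreceptor genes Nrp1 and Nrp2. They were matched by symbol, and the list was drawn up with earlier results of these data known. All 10 were found in both deposited tables, among 28008 genes that the tables share. The 12 samples sequenced came from the gonadal white fat, a visceral depot that the series title names, of inbred C57BL/6N mice. HFD PCN mice had eaten a high-fat diet (HFD) for 18 weeks from 6 weeks of age and then received pregnenolone 16alpha-carbonitrile (PCN), a steroid agonist of the mouse pregnane X receptor, as a daily intraperitoneal dose of 50 mg/kg over 4 days. HFD Vehicle mice had the same diet and the same course of injections with 30% DMSO in corn oil. HFD mice had the diet for the same time from the same age. Chow mice ate regular chow for 18 weeks from 6 weeks of age. No injection is stated for HFD or Chow mice. Each group had 3 libraries, named by the numbers in their labels, and since the labels do not state separate animals, p-values here reflect only how much these libraries vary, which may be technical.

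VEGF ligands are secreted dimers that control the growth, survival and permeability of vessels. VEGF-A binds the receptors encoded by Flt1 and Kdr, and signals in blood endothelium mainly through the Kdr product. VEGF-B and placental growth factor bind the Flt1 product, which also occurs in a soluble form that traps ligand. VEGF-C and VEGF-D, after proteolytic trimming, act on the Flt4 product in lymphatic endothelium and can also bind that of Kdr. Neuropilins hold ligand beside these kinases and are also receptors of class 3 semaphorins. In fat, adipocytes are a main source of VEGF-A, and hypoxia-inducible factors raise its transcription in many cell types.

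Library totals ranged from 11090117 to 27408092 counts. Levels are given as normalised CPM, a gene's counts relative to the size of its library, scaled over all 12 libraries. A gene is called where its adjusted p in the quasi-likelihood test of edgeR is under 0.05, adjusted over all genes tested. The source label of the samples reads duodenum, yet Fabp4, an adipocyte fatty acid binding protein, was at 2812 to 8074 CPM. The epithelial genes Epcam and Vil1 were at 0 to 0.298 and 0.0701 to 2.83 CPM. Lgals4, another intestinal epithelial marker, averaged 37.7 CPM in Chow, 21.7 in HFD Vehicle, 21.2 in HFD PCN and 8.95 in HFD. HFD Vehicle 50 stood apart from its group: the macrophage gene Adgre1 had 69.1 CPM there, against 889 and 894 CPM in HFD Vehicle 23 and 55 and 28.1 to 76.0 CPM in Chow, so the fold changes that involve HFD Vehicle, its levels per length and the correlations across libraries are also given without it. Mitochondrially encoded genes took 7.30% to 29.6% of counts in Chow and 7.85% in HFD Vehicle 50, against 2.30% to 3.47% in the other libraries. Leaving these genes out of library sizes and tests changed no call of a VEGF gene. These were whole-tissue samples, so fewer cells of a type and less RNA per cell cannot be told apart in any value below.

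In the main diet comparison, HFD against Chow, 6 genes of this family fell. The promoters of 4 of them, picked here with their values known, are shown: Vegfa and Vegfb among the ligands, Flt1 and Kdr among the receptors. The lines give the 250 bases before the RefSeq start site in GRCm38.p6, 5′ to 3′ on the gene's own strand, which is the minus strand for all 4. Capitals mark the hypoxia response cores ACGTG and GCGTG on either strand, so that CACGT and CACGC are the same cores read from the other strand. The windows are chr17:46032378-46032627 for Vegfa (upstream start site), chr19:6987652-6987901 for Vegfb, chr5:147726012-147726261 for Flt1 and chr5:75978456-75978705 for Kdr.
Vegfa: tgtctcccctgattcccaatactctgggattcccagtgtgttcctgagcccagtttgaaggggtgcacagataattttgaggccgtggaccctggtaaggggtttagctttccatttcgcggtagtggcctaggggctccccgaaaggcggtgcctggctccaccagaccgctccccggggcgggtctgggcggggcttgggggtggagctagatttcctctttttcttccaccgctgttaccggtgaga
Vegfb: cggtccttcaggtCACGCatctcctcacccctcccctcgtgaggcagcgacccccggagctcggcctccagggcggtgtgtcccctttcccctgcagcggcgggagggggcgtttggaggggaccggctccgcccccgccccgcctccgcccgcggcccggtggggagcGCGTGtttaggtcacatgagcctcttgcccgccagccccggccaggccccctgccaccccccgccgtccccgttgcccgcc
Flt1: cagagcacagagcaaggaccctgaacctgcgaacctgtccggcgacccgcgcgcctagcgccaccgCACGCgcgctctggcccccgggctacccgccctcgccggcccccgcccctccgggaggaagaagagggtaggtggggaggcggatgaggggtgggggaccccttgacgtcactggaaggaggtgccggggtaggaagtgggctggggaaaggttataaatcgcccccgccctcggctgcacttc
Kdr: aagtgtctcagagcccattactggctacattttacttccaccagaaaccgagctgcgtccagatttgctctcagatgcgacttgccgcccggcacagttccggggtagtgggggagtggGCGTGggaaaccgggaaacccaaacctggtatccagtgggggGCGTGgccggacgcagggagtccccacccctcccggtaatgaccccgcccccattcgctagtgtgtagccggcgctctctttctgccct

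GCGTG occurred 2 times in the Vegfb window, 1 time in that of Flt1 and 2 times in that of Kdr, and ACGTG in none of the 4. Neither core lies in the printed Vegfa window, which says only that these letters are not in it. RefSeq lists another Vegfa start site, whose window chr17:46025164-46025413 inside the gene holds ACGTG 1 time and GCGTG 1 time and is not printed. Either core was present in 38.6% of 32851 RefSeq promoter windows of the same length, ACGTG in 16.6% and GCGTG in 28.2%. Of the members not printed, Flt4, which also fell, and Vegfc and Vegfd had neither core in their windows. GCGTG occurred 1 time in the window of Nrp1 and 2 times in that of Nrp2, neither called lower in HFD. Pgf, which fell, had GCGTG 1 time in 1 of its RefSeq windows and neither core in the other. Any link between core and fall was not tested. The GC box GGGCGG, searched on both strands, occurred 2, 4, 3 and 2 times in the windows of Vegfa, Vegfb, Flt1 and Kdr, and was present in 32.7% of all windows. A TATAAA box lay in the Flt1 window only among the 4 and in 12.4% of all windows, and the ETS core CCGGAA in the Kdr window only and in 12% of all windows. The GC content of the windows was 59.2% for Vegfa, 76.4% for Vegfb, 70.4% for Flt1 and 61.6% for Kdr.

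In high-fat diet against chow most of the family differed. Of the 10 genes 7 were called, 1 higher and 6 lower in HFD, with Vegfc, Vegfd and Nrp1 not called. Among all 16216 genes tested 59.8% were called, 29.8% higher and 30% lower, so the count of 7 is not far from the background, while 6 of 10 lower stands beside 30%. The median log2 fold change was -1.32 over the 10 genes and -0.03 over all genes tested. Scaling by library totals alone, an alternative chosen after seeing the data, moved the median of all genes to 0.22 and their split to 5583 higher and 3113 lower, against 4838 and 4861 as fitted. Upper quartile scaling moved it to -0.13, with 4314 higher and 5490 lower. Under these scalings the median of the 10 genes was -1.07 and -1.41, and the split was 1 higher with 5 and 6 lower.

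Among the ligands the fall was largest for Vegfa (ENSMUSG00000023951, GRCm38 chr17:46016993-46032369, minus strand), the ligand that drives most blood vessel growth. It was at 38.5, 47.2 and 37.4 CPM in HFD 4, 30 and 38, against 252, 379.6 and 372 CPM in Chow 8, 17 and 19. Every HFD library lay far below every Chow library. The log2 fold change was -3.06 (SE 0.20, edgeR adjusted p = 1.46e-05). The annotation lists 13 transcripts of Vegfa, and gene counts do not resolve them, so the mix of VEGF-A isoforms was not measured.

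Vegfb (ENSMUSG00000024962, chr19:6982473-6987651), whose product binds Flt1 and has been linked to fatty acid transport across endothelium, was at 9.78, 11.2 and 12.4 CPM in HFD 4, 30 and 38, against 32.8, 40.2 and 35.8 CPM in Chow 8, 17 and 19. The groups did not overlap, and the log2 fold change was -1.74 (SE 0.14, edgeR adjusted p = 3.15e-05). Pgf (chr12:85166635-85177790), the placental growth factor gene, was a low gene with 63 to 126 counts per library over the 12 libraries. It was at 3.48, 3.79 and 6.08 CPM in HFD 4, 30 and 38, against 9.39, 7.20 and 7.18 CPM in Chow 8, 17 and 19. Its fall of 0.89 on the log2 scale (SE 0.25, edgeR adjusted p = 0.0154) was not called with library totals (adjusted p = 0.0835), in the fit of all 12 libraries (0.0797), without HFD 30 (0.0663) or without HFD 4 (0.0678).

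The lymphangiogenic ligands did not follow. Vegfc (chr8:54077606-54187096) was at 4.82, 6.31 and 4.97 CPM in HFD 4, 30 and 38, against 4.85, 7.52 and 5.82 CPM in Chow 8, 17 and 19, with groups that overlapped (log2 fold change -0.21, SE 0.23, edgeR adjusted p = 0.45). The sign of this small difference turned to 0.04 with library totals. Vegfd (chrX:164373378-164402650) was at 12.9, 13.9 and 13.4 CPM in HFD 4, 30 and 38, against 13.5, 11.8 and 8.78 CPM in Chow 8, 17 and 19 (log2 fold change 0.20, SE 0.16, edgeR adjusted p = 0.328). These groups overlapped too.

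All 3 receptor kinase genes fell, to a like extent. Flt1 (ENSMUSG00000029648, chr5:147561604-147726011), whose product binds VEGF-A, VEGF-B and placental growth factor, was at 58.2, 61.6 and 63.0 CPM in HFD 4, 30 and 38, against 271, 305 and 279 CPM in Chow 8, 17 and 19. Kdr (chr5:75932827-75978458), the main signalling receptor of VEGF-A, was at 47.4, 40.9 and 37.7 CPM in HFD 4, 30 and 38, against 222, 193 and 200.1 CPM in Chow 8, 17 and 19. Flt4 (chr11:49609263-49652739), the receptor of VEGF-C and VEGF-D, was at 6.05, 5.92 and 5.14 CPM in HFD 4, 30 and 38, against 25.1, 28.8 and 35.5 CPM in Chow 8, 17 and 19. In none of the 3 genes did the groups overlap, and the spread within HFD was small. The log2 fold changes were -2.26 for Flt1 (SE 0.11, edgeR adjusted p = 6.47e-06), -2.32 for Kdr (SE 0.12, 7.60e-06) and -2.41 for Flt4 (SE 0.17, 1.80e-05). Membrane-bound and soluble forms of Flt1 cannot be separated in gene counts.

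The neuropilins parted from the kinases and from each other. Nrp1 (chr8:128358604-128503363), which binds VEGF-A and enhances its signalling through Kdr, was at 339.8, 322 and 319 CPM in HFD 4, 30 and 38, against 315, 365 and 286 CPM in Chow 8, 17 and 19. The groups overlapped, and the log2 fold change, -0.02 (SE 0.13, edgeR adjusted p = 0.925), had a sign that depended on the scaling, being 0.23 with library totals. Nrp2 (chr1:62703285-62818695), a coreceptor for VEGF-C in lymphatic endothelium, was at 237, 229 and 233 CPM in HFD 4, 30 and 38, against 96.7, 109 and 96.4 CPM in Chow 8, 17 and 19. It was the gene of the family that rose (log2 fold change 1.17, SE 0.11, edgeR adjusted p = 5.58e-05), and every HFD library lay above every Chow library.

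**Figure D1:**
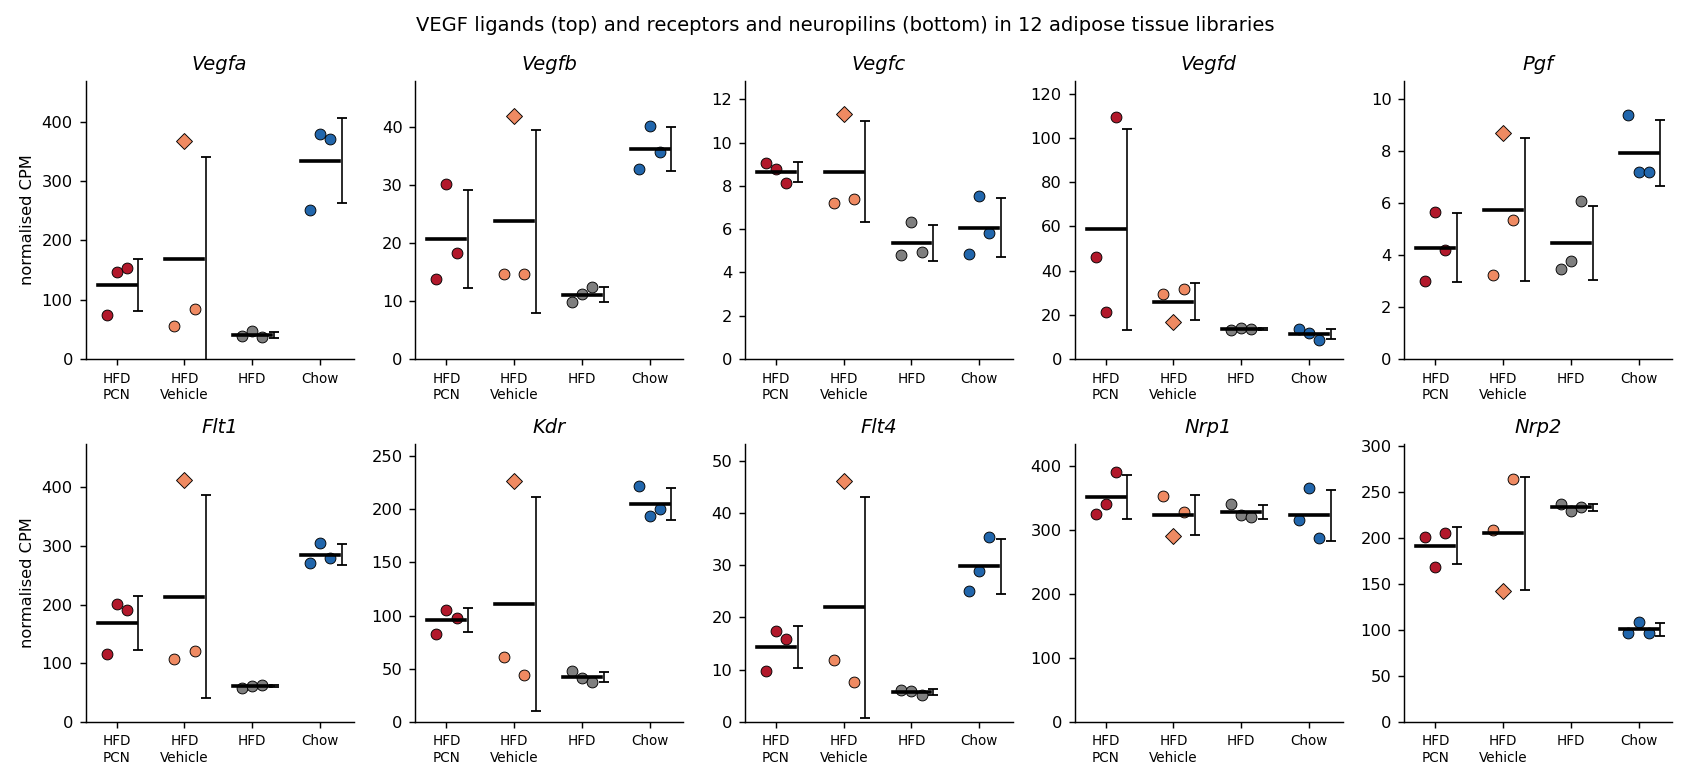
Normalised CPM (y axis, from 0) of the 10 VEGF genes by group, with 1 point per library, a bar for the mean and an error bar for the SD over 3 libraries; the diamond is HFD Vehicle 50, and the SD bar of Vegfa in HFD Vehicle stops at the axis. Vegfa, Vegfb, Flt1, Kdr and Flt4 have their lowest mean in HFD and Nrp2 in Chow, and HFD Vehicle 50 lies above the lowest Chow library in the 6 genes that fell in HFD against Chow.

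Per length, the order of the ligands was nearly kept while the distances shrank. On the scale of normalised CPM per kilobase of exon, Vegfa led in HFD at 9.58 ± 1.25 (SD, n = 3), followed by Vegfb at 6.94 ± 0.831, Vegfd at 5.57 ± 0.198, Vegfc at 2.19 ± 0.336 and Pgf at 1.53 ± 0.489. In Chow the order was Vegfa at 78.1 ± 16.7 (SD, n = 3), Vegfb at 22.6 ± 2.33, Vegfd at 4.71 ± 0.990, Pgf at 2.73 ± 0.438 and Vegfc at 2.47 ± 0.553. Vegfc and Pgf overlapped each other in both groups, while the other neighbours in these orders did not overlap. Among the receptor genes Nrp1 led in HFD at 33.4 ± 1.13 CPM per kilobase, ahead of Nrp2 at 19.7 ± 0.305, Kdr at 4.65 ± 0.546, Flt1 at 4.51 ± 0.182 and Flt4 at 0.693 ± 0.0597. In Chow Nrp1 was at 32.9 ± 4.09, ahead of Kdr at 22.7 ± 1.67, Flt1 at 21.1 ± 1.33, Nrp2 at 8.5 ± 0.604 and Flt4 at 3.62 ± 0.636. Kdr and Flt1 overlapped in both groups, and Nrp2 changed places with both.

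The make-up of the ligand pool differed accordingly. The 5 ligand genes summed to 25.8 ± 2.04 CPM per kilobase in HFD and 110.6 ± 18.0 in Chow (SD, n = 3 each). Vegfa took 37.1% ± 3.34 of this sum in HFD and 70.2% ± 4.37 in Chow, and Vegfd 21.6% ± 0.982 in HFD and 4.42% ± 1.61 in Chow. The 3 kinase genes summed to 9.85 ± 0.416 CPM per kilobase in HFD and 47.4 ± 0.306 in Chow, with Kdr taking 47.1% ± 3.52 of the sum in HFD and 47.9% ± 3.34 in Chow. The shares within the kinase pool thus overlapped between the groups while its total did not. Nrp2 took 37.1% ± 0.565 of the neuropilin sum in HFD and 20.6% ± 1.04 in Chow.

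**Figure D2:**
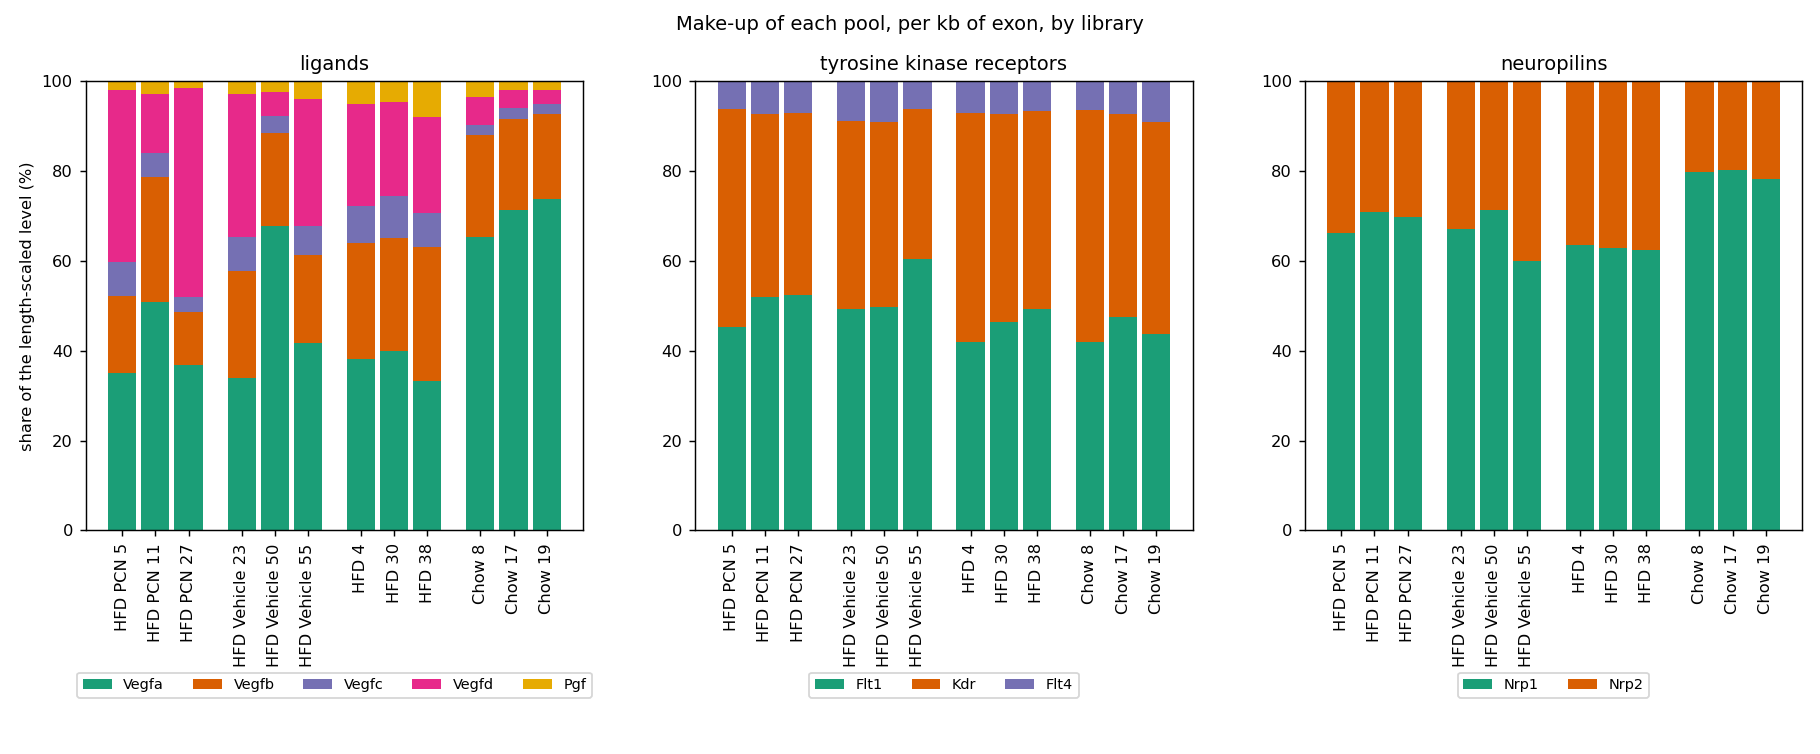
Share (%) of each gene in the summed normalised CPM per kilobase of exon of the ligands, receptor kinases and neuropilins, with 1 stacked bar per library and libraries ordered HFD PCN, HFD Vehicle, HFD and Chow. Vegfa holds 65.3% to 73.8% of the ligand sum in Chow and 33.4% to 39.8% in HFD, while the kinase shares of HFD and Chow overlap.

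Ratios inside a library do not depend on scaling between libraries, and 4 were tested. The log2 ratio of Vegfa to Vegfb was 1.97, 2.06 and 1.58 in HFD 4, 30 and 38, against 2.94, 3.23 and 3.37 in Chow 8, 17 and 19. The difference of -1.31 (SE 0.19) had no overlap between groups. That of Nrp1 to Nrp2 was 0.52, 0.49 and 0.45 in HFD 4, 30 and 38, against 1.70, 1.75 and 1.57 in Chow 8, 17 and 19, a difference of -1.19 (SE 0.06) again without overlap. For both, the exact two-sided permutation test gave p = 0.1, the smallest it can give with 3 against 3 libraries, and 0.2 after adjustment over the 4 ratios. Flt1 to Kdr differed by 0.07 (SE 0.17, exact p = 0.7) and Vegfc to Vegfd by -0.42 (SE 0.30, exact p = 0.4), both with overlapping libraries.

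The receptor genes are known from endothelium, so they were set beside 20 blood endothelial markers. Of these 19 fell in HFD and 1 rose, with a median log2 fold change of -1.45, and over the 19 genes in both tables they summed to 876 to 910.0 CPM in HFD libraries and 1754 to 2072 CPM in Chow libraries. The log2 fold change was -1.70 for the vascular cadherin gene Cdh5, -2.35 for the roundabout receptor gene Robo4, -2.18 for the secreted regulator gene Egfl7 and -1.83 for the endoglin gene Eng. The exception, which rose and was picked here with its values known, was Cd34, which progenitors also carry (0.72). Relative to the mean log2 CPM of the markers in the same library, the kinase genes were still lower in HFD, by -1.07 for Flt1 (SE 0.13), -1.14 for Kdr (SE 0.11) and -1.20 for Flt4 (SE 0.16). Nrp1 stood higher by 1.18 (SE 0.18) and Nrp2 by 2.36 (SE 0.13). None of these 5 differences had overlapping libraries, and each had an exact permutation p of 0.1, the smallest possible, or 0.117 after adjustment over 7 such differences.

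Of 8 lymphatic endothelial markers 6 could be tested, 5 of which were not called. Pdpn, the podoplanin gene, also made by macrophages and fibroblasts, averaged 37.2 ± 1.97 CPM in HFD libraries and 5.07 ± 2.74 CPM in Chow libraries (SD, n = 3 each) and rose by 2.79 on the log2 scale. The median over the 6 was -0.20, or 0.01 with library totals. The defining markers Prox1 and Lyve1 had log2 fold changes of -0.62 and -0.62 (edgeR adjusted p = 0.329 and 0.0540). Tbx1 was at 0 counts in 4 of the 12 libraries and Ccl21a in 1.

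Adipocyte markers, like Vegfa, Vegfb and Pgf, were lower in HFD than in Chow. Of 15 genes 14 fell and 0 rose, with Lpl not called, a median log2 fold change of -1.88, and a summed level of 11923 to 13914 CPM in HFD libraries and 33627 to 36945 CPM in Chow libraries over the 14 in both tables. The log2 fold change was -4.54 for Pck1, an enzyme gene of glyceroneogenesis, and -2.54 for Acvr1c, an activin receptor gene of adipocytes. Relative to the mean log2 CPM of these markers Vegfa was lower in HFD by -1.07 (SE 0.22), without overlap (exact permutation p = 0.1, adjusted 0.117). Vegfb differed from them by 0.24 (SE 0.19), with overlap (exact permutation p = 0.4). Macrophage markers went the other way: 13 of 14 rose and 1 fell, with a median of 3.09, and their sum was 8597 to 9428 CPM in HFD libraries and 709 to 1784 CPM in Chow libraries. Neuropilin genes are also active in macrophages, and the part of these cells in the level of Nrp2 was not tested.

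**Figure D3:**
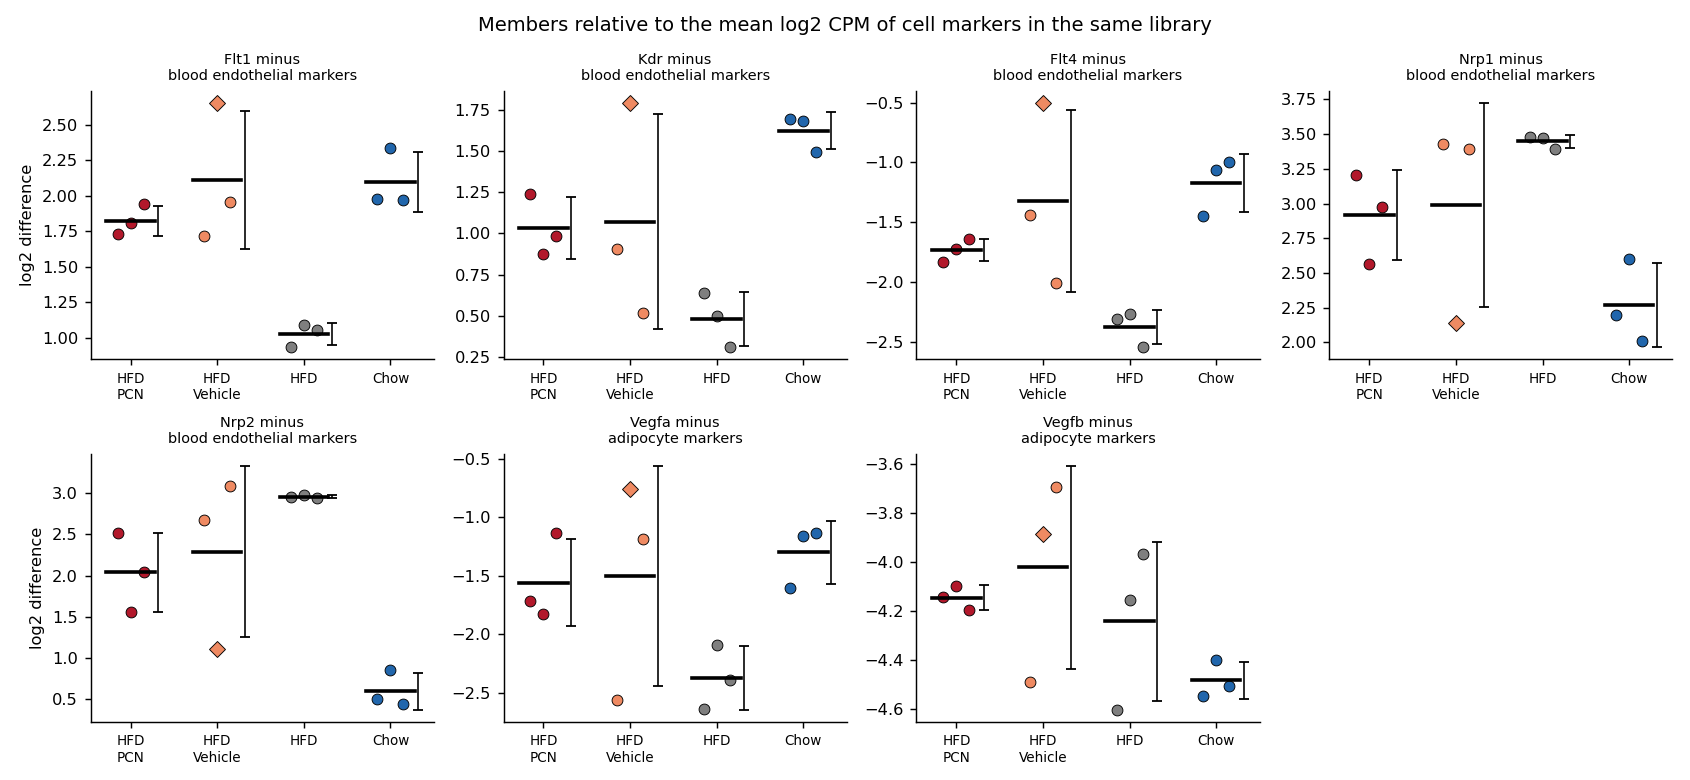
Log2 CPM of a VEGF gene minus the mean log2 CPM of blood endothelial or adipocyte markers in the same library (y axis), by group, with points for libraries, a bar for the mean, an error bar for the SD over 3 libraries and a diamond for HFD Vehicle 50. The HFD libraries lie below Chow for Flt1, Kdr, Flt4 and Vegfa, above Chow for Nrp1 and Nrp2, and overlap Chow for Vegfb.

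Genes around the family were read from lists of partners and regulators. Their counts stand beside 29.8% called higher and 30% called lower among all 16216 genes tested. In hypoxia-inducible factor control, 2 of 10 genes rose and 6 fell, with a median of -0.51. Epas1, the factor HIF-2alpha of endothelium and adipocytes, averaged 155 ± 19.1 CPM in HFD libraries and 595 ± 80.0 CPM in Chow libraries (SD, n = 3 each) and fell by 1.98 on the log2 scale. Also lower were Hif3a (-3.52), Vhl, which marks these factors for breakdown (-1.53), and their partner Arnt (-0.67). Named after their values were seen, Hif1a (0.51) and Arnt2 (1.25) were the genes that rose. With library totals 3 fell in place of 6. Of 17 hypoxia target genes 14 were tested, 7 rose and 3 fell, with a median of 0.24. The glycolytic gene Pgk1 rose by 1.67 and the glucose transporter gene Slc2a1 by 1.37, while Bnip3, a mitophagy receptor gene, fell by 1.34 and Ndrg1, a stress-response gene, fell by 1.35.

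Signalling genes downstream of the receptors had 20 of 34 higher and 8 lower, with a median of 0.42. Prkcb, a protein kinase C gene also strong in myeloid cells, averaged 124 ± 12 CPM in HFD libraries and 12.5 ± 1.83 CPM in Chow libraries (SD, n = 3 each), a rise of 3.27 on the log2 scale. Rcan1, a feedback inhibitor of calcineurin, rose by 1.59 and the kinase gene Akt1 by 0.97. Nos3, the endothelial nitric oxide synthase gene, averaged 16.8 ± 1.67 CPM in HFD libraries and 90.4 ± 34.8 CPM in Chow libraries (SD, n = 3 each) and fell by 2.46. Most of these genes act in every cell type of the tissue.

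Among 15 genes of VEGF-C processing and VEGF binding 3 rose and 6 fell, with a median of -0.21 that turned to 0.06 with library totals. Among all genes tested 59.8% were called, and the totals called in this list and the next are not far from that share. The phosphatase gene Ptprb, a brake on vascular receptor kinases, fell by 2.12 on the log2 scale and the protease gene Pcsk5 fell by 1.51. Cd44 (3.08) and the integrin gene Itgav (1.79) rose. Semaphorins and plexins, the other partners of neuropilins, had 1 of 12 higher and 5 lower, with a median of -0.22 (0.00092 with library totals). Lower were Sema3g (-1.71), Sema3f (-2.29) and the plexin gene Plxna2 (-1.70), and Plxna1 rose by 1.14. With library totals 3 of the 12 were higher and 4 lower.

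The angiopoietin and Notch partners were the vascular list with the lowest median, -1.63. Of 17 genes 16 were tested, 2 rose and 11 fell. The log2 fold change was -2.61 for the Notch ligand gene Jag2, -1.86 for Notch1, -1.74 for Dll4, the Notch ligand of sprouting tip cells, and -1.28 for Tek, the angiopoietin receptor gene. The pair that rose, picked here with its values known, were the ligand genes Angpt2 (2.07), an antagonist of Tek signalling in many settings, and Angpt1 (0.72). Mural cell markers, of pericytes and smooth muscle, had 5 of 9 lower and 0 higher (median -1.25), and progenitor and fibroblast markers 5 of 9 higher and 0 lower (median 0.46). Of 7 mesothelial markers 6 were tested and 0 called (median 0.48), and of 10 intestinal epithelial markers 3 were tested, all lower (median -2.11).

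**Figure D4:**
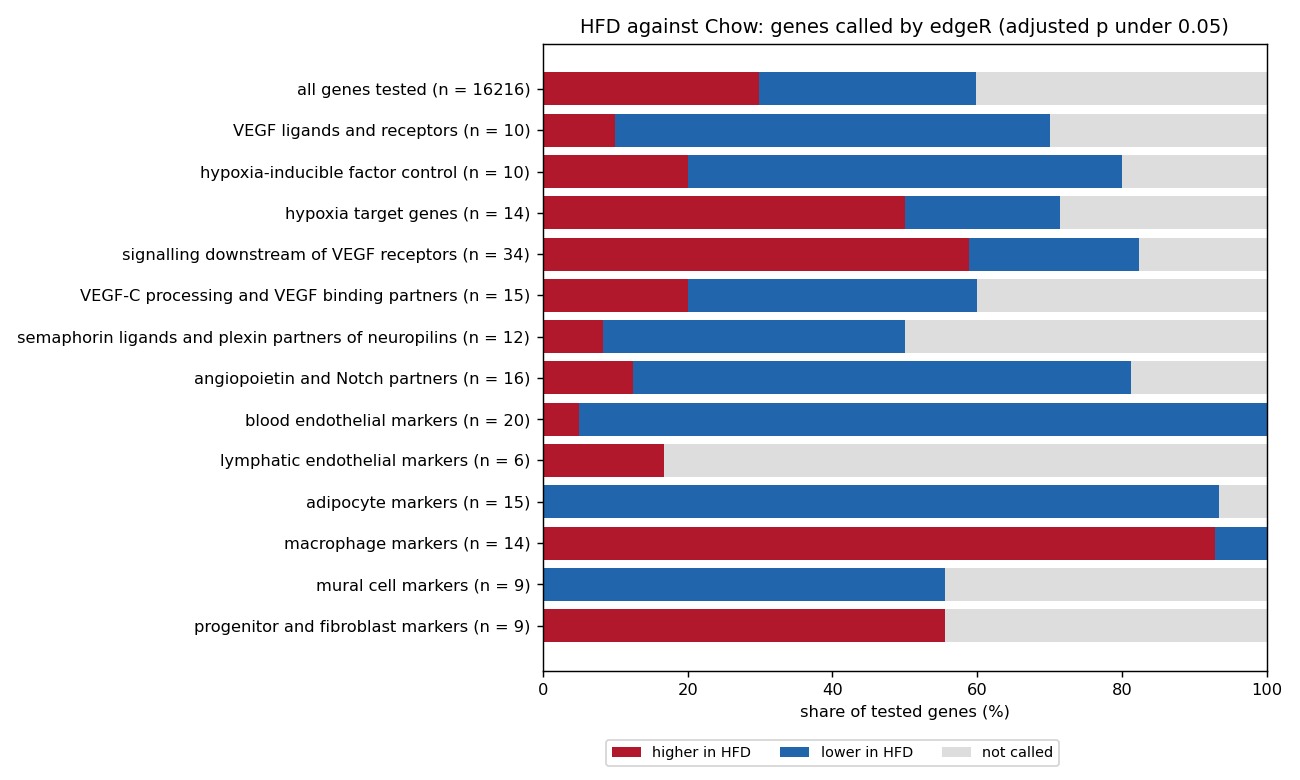
Share (%) of tested genes called higher (red), called lower (blue) or not called (grey) in HFD against Chow, for all genes tested and for the VEGF genes, their partners and the cell markers, with the number tested beside its name. Blood endothelial (19 of 20), adipocyte (14 of 15) and angiopoietin and Notch genes (11 of 16) were mostly lower, macrophage genes (13 of 14) mostly higher, and the VEGF genes had 6 of 10 lower, where 30% of all genes were.

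PCN against its vehicle asked whether the agonist changed these genes in obese mice. None of the 10 was called, and 0% of all 16563 genes were (281 had an unadjusted p under 0.05, DESeq2 called 2 and limma-voom 0). Vegfa was at 74.8, 146 and 154 CPM in HFD PCN 5, 11 and 27, against 56.0, 367 and 83.9 CPM in HFD Vehicle 23, 50 and 55. Its log2 fold change was -0.43 (SE 0.72, edgeR adjusted p = 0.99986). The groups overlapped, and HFD Vehicle 50 had a value within the Chow range. Overlap was also seen for Vegfb (13.9, 30.2 and 18.3 CPM in HFD PCN, against 14.6, 42.0 and 14.7 CPM in HFD Vehicle) and Pgf (2.99, 5.66 and 4.20 CPM in HFD PCN, against 3.22, 8.68 and 5.33 CPM in HFD Vehicle), with library 50 again the highest.

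Among the receptors Flt1 was at 116, 200.5 and 189.9 CPM in HFD PCN 5, 11 and 27, against 107, 413 and 121 CPM in HFD Vehicle 23, 50 and 55 (log2 fold change -0.33, SE 0.56). Kdr was at 83.0, 105 and 98.0 CPM in HFD PCN, against 61.0, 227 and 44.5 CPM in HFD Vehicle (-0.21, SE 0.60). Flt4 was at 9.80, 17.3 and 15.8 CPM in HFD PCN, against 11.9, 46.2 and 7.63 CPM in HFD Vehicle (-0.60, SE 0.67). Library 50 was the highest of the 6 in each of the 3 genes. Without it the signs turned, to 0.83 for Vegfa (SE 0.34), 0.50 for Vegfb (SE 0.32), 0.57 for Flt1 (SE 0.25), 0.85 for Kdr (SE 0.19) and 0.54 for Flt4 (SE 0.31), each still uncalled (edgeR adjusted p = 0.8001). Without it Pgf was at -0.00056 (SE 0.36). In that setting the 3 HFD PCN libraries of Kdr all lay above HFD Vehicle 23 and 55.

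Vegfd had the largest log2 fold change of the 10 in this comparison, 1.18 (SE 0.59, unadjusted p = 0.0877, edgeR adjusted p = 0.99986). It was at 46.1, 21.1 and 109 CPM in HFD PCN 5, 11 and 27, against 29.5, 16.5 and 31.8 CPM in HFD Vehicle 23, 50 and 55. The groups overlapped, and without HFD Vehicle 50 the value was 0.94 (SE 0.61). HFD PCN 27 alone had more than 100 CPM, a value over 3 times that of every HFD Vehicle library. Vegfc (9.04, 8.77 and 8.12 CPM in HFD PCN, against 7.22, 11.3 and 7.41 CPM in HFD Vehicle) and Nrp1 (324, 339.6 and 389 CPM in HFD PCN, against 352, 289.7 and 327 CPM in HFD Vehicle) overlapped, with log2 fold changes of 0.01 (SE 0.24) and 0.12 (SE 0.20). Nrp2 was at 201, 168 and 205 CPM in HFD PCN, against 208, 142 and 264 CPM in HFD Vehicle (-0.09, SE 0.26). Without HFD Vehicle 50 these were 0.24 for Vegfc (SE 0.18), 0.05 for Nrp1 (SE 0.17) and -0.31 for Nrp2 (SE 0.18), none of them called. Mesothelial markers, of the cell layer that covers this depot, summed to 54.9 to 100.3 CPM in HFD PCN, 9.71 to 56.5 CPM in HFD Vehicle (the highest being library 50, with 19.9 CPM next), 7.01 to 27.5 CPM in HFD and 9.24 to 22.1 CPM in Chow over 7 genes, of which Krt8 was at 0 in HFD 38, and their part in the level of Vegfd was not tested. In HFD PCN 5, 11 and 27 the mesothelial sums were 100.3, 66.9 and 54.9 CPM, beside 46.1, 21.1 and 109 CPM of Vegfd.

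Both injected groups were also set against uninjected HFD mice in the fit of all 12 libraries, over 17304 genes. These comparisons share the HFD libraries and, like HFD PCN against Chow, set libraries of separate deposited tables side by side, so injection and table cannot be told apart. With PCN 0 of the 10 genes were called, and 0% of all genes (1871 had an unadjusted p under 0.05, DESeq2 called 271 and limma-voom 0). The log2 fold changes were 2.13 for Vegfd (SE 0.48), 1.60 for Vegfa (SE 0.58), 1.47 for Flt1 (SE 0.44), 1.32 for Flt4 (SE 0.54), 1.18 for Kdr (SE 0.47), 0.90 for Vegfb (SE 0.40) and 0.69 for Vegfc (SE 0.23), with edgeR adjusted p between 0.191 and 0.454. In each of these 7 genes all 3 HFD PCN libraries lay above all 3 HFD libraries. For Nrp2 all 3 lay below, at 168 to 205 CPM in HFD PCN and 229 to 237 CPM in HFD. How many of all genes parted in this way was not counted, so these separations cannot be read as particular to the VEGF genes. Pgf, Nrp1 and Nrp2 were at -0.05 (SE 0.37), 0.10 (SE 0.15) and -0.29 (SE 0.20).

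The count of calls in HFD PCN against HFD differed between fits. Fitted on the 6 HFD PCN and HFD libraries alone, edgeR called 732 of 16927 genes tested, 503 higher and 229 lower in HFD PCN. Among them were Vegfa (edgeR adjusted p = 0.0289), Flt1 (0.0234), Kdr (0.0172) and Flt4 (0.0300), all higher in HFD PCN. DESeq2 on 12 libraries called Vegfd (adjusted p = 0.00384). Blood endothelial markers summed to 964 to 1629 CPM in HFD PCN and 876 to 910.0 CPM in HFD, adipocyte markers to 11468 to 21788 CPM in HFD PCN and 11923 to 13914 CPM in HFD, and macrophage markers to 3377 to 7587 CPM in HFD PCN and 8597 to 9428 CPM in HFD. Their part in these differences was not tested.

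HFD Vehicle against HFD had 0 of 10 genes called and 0% of all genes (2649 had an unadjusted p under 0.05, DESeq2 called 220 and limma-voom 0). The fitted values were 2.04 for Vegfa (SE 0.59), 1.81 for Flt1 (SE 0.44), 1.92 for Flt4 (SE 0.54), 1.40 for Kdr (SE 0.47), 1.08 for Vegfb (SE 0.40), 0.96 for Vegfd (SE 0.47) and 0.68 for Vegfc (SE 0.23), with Pgf at 0.36 (SE 0.37), Nrp1 at -0.02 (SE 0.15) and Nrp2 at -0.19 (SE 0.20). DESeq2 called Vegfa, Flt1 and Flt4 among them. Without HFD Vehicle 50 the values were 0.77 for Vegfa (SE 0.30), 0.90 for Flt1 (SE 0.20), 0.78 for Flt4 (SE 0.26), 0.33 for Kdr (SE 0.16), 0.40 for Vegfb (SE 0.26), 1.19 for Vegfd (SE 0.47) and 0.45 for Vegfc (SE 0.21). Pgf was then at -0.05 (SE 0.34), Nrp1 at 0.05 (SE 0.15) and Nrp2 at 0.02 (SE 0.14). The Vegfd value was higher without that library, and those of Vegfa, Vegfb, Vegfc, Flt1, Kdr and Flt4 were lower. Vegfd was at 29.5 and 31.8 CPM in HFD Vehicle 23 and 55, against 12.9 to 13.9 CPM in HFD.

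HFD PCN against Chow, which shares its Chow libraries with the diet comparison, called 2 of 10 genes, both higher in HFD PCN. Of all 17304 genes 16% were called, 11.3% higher and 4.77% lower. The log2 fold changes were 2.37 for Vegfd (SE 0.49, edgeR adjusted p = 0.0233) and 0.93 for Nrp2 (SE 0.20, edgeR adjusted p = 0.0239). All 3 HFD PCN libraries lay above all 3 Chow libraries in both genes. Neither call held without Chow 17, Chow 19, HFD PCN 5 or HFD PCN 27, where the adjusted p was between 0.0621 and 0.101 and only 2 to 9 genes were called among all, against 2774. The Vegfd value was 1.54 without HFD PCN 27. The 2774 calls were 1948 higher and 826 lower, against 3683 and 409 with library totals and 1645 and 1178 with upper quartile scaling.

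In the same comparison the 6 genes that fell in HFD against Chow were not called. Vegfa was at -1.42 (SE 0.58), Kdr at -1.11 (SE 0.47), Flt4 at -1.06 (SE 0.53), Pgf at -0.90 (SE 0.37), Vegfb at -0.80 (SE 0.39) and Flt1 at -0.75 (SE 0.43) on the log2 scale, with edgeR adjusted p between 0.103 and 0.217. Vegfc (0.51, SE 0.23) and Nrp1 (0.12, SE 0.15) were not called either. In the fit of the 6 HFD PCN and Chow libraries alone 8 of these genes were called, 2 higher and 6 lower, with Vegfc and Nrp1 left uncalled. Of all 16188 genes tested there 4424 were called, 2542 higher and 1882 lower.

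**Figure D5:**
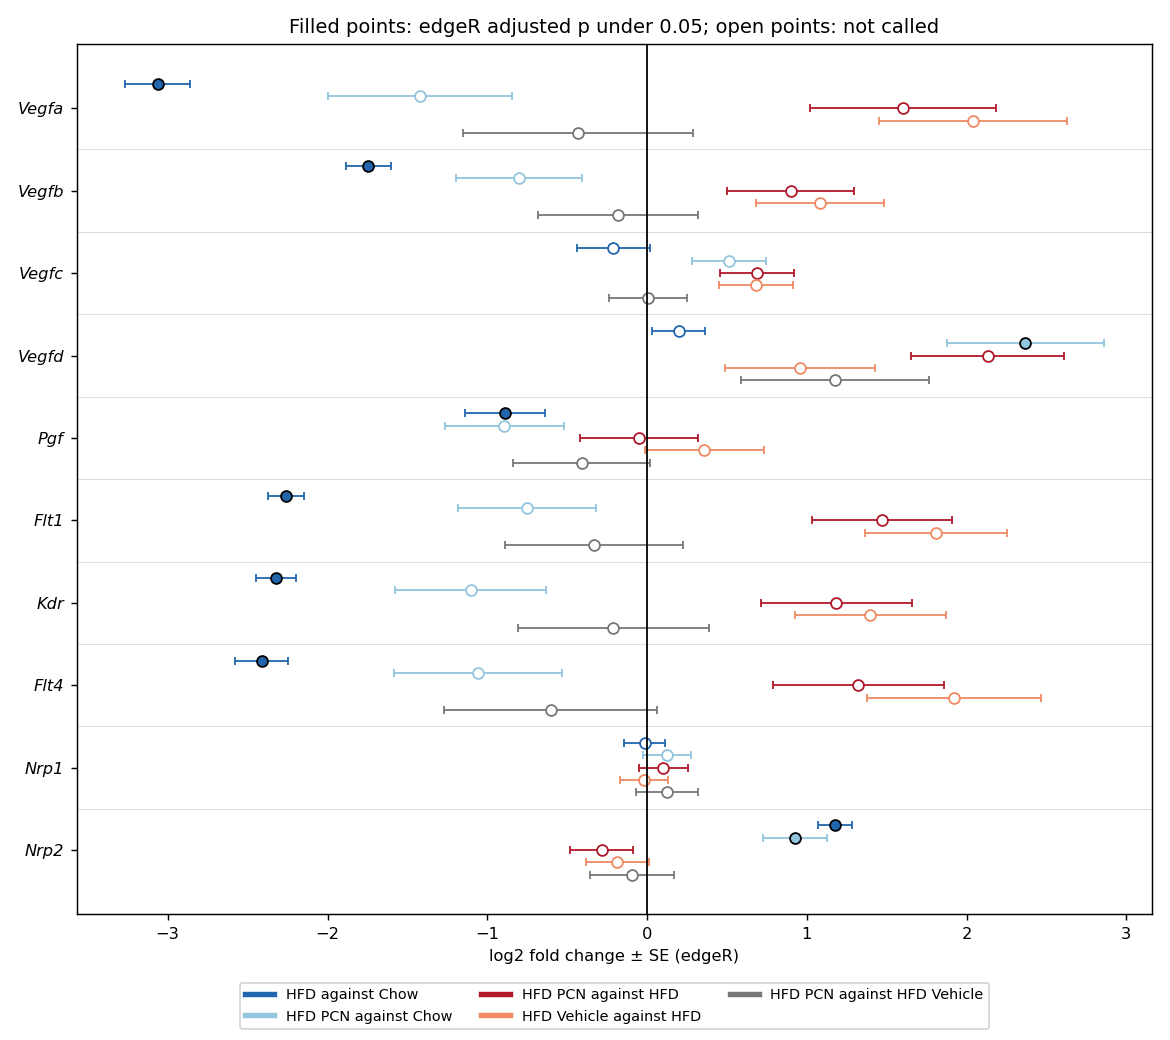
Log2 fold change with its SE (x axis) of each VEGF gene in 5 comparisons by edgeR, with filled points where the adjusted p is under 0.05 and open points elsewhere. The SEs are smallest in HFD against Chow and larger wherever HFD PCN or HFD Vehicle takes part, except for Vegfc, whose SEs are about alike. Vegfd is the ligand whose values lie to the right in all 5 comparisons.

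In HFD PCN the ligands per kilobase of exon were led by Vegfa at 29.1 ± 10.2 CPM (SD, n = 3), followed by Vegfd at 24.4 ± 18.9 and Vegfb at 12.96 ± 5.27, each overlapping the next, with Vegfc at 3.53 ± 0.194 and Pgf at 1.47 ± 0.460 below them. In HFD Vehicle the order was Vegfa at 39.5 ± 40.2, Vegfb at 14.8 ± 9.81, Vegfd at 10.8 ± 3.42, Vegfc at 3.53 ± 0.948 and Pgf at 1.98 ± 0.949. This order rested on HFD Vehicle 50: over the other 2 libraries the means were 16.3 for Vegfa, 12.7 for Vegfd, 9.14 for Vegfb, 2.99 for Vegfc and 1.47 for Pgf, with Vegfd above Vegfb in both libraries and overlapping Vegfa. Vegfd made up 38.3%, 13.02% and 46.6% of the ligand sum in HFD PCN 5, 11 and 27, and 31.8%, 5.44% and 28.2% in HFD Vehicle 23, 50 and 55. In HFD PCN 5 and 27 it exceeded Vegfa, which took 34.9% and 36.8% there. For the receptors the leading gene per kilobase was Nrp1 in all 4 groups, at 35.9 ± 3.46 CPM in HFD PCN, 33.0 ± 3.20 in HFD Vehicle (34.7 without library 50), 33.4 ± 1.13 in HFD and 32.9 ± 4.09 in Chow.

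Across the 12 libraries the genes fell into patterns, given here as a description, since the libraries share their groups and HFD Vehicle 50. Pearson's r of log2 CPM (n = 12 libraries) was 0.976 for Vegfa with Flt1, 0.953 for Vegfa with Kdr, 0.962 for Vegfa with Vegfb, 0.972 for Flt1 with Flt4 and 0.948 for Flt1 with Kdr. Nrp2 ran against these genes, with r of -0.868 with Vegfa and -0.922 with Kdr. Vegfd had r between -0.499 and 0.588 with the other 9, the highest being that with Nrp1. Nrp1 had r of 0.323 with Nrp2. Over the 11 libraries without HFD Vehicle 50, r was 0.975 for Vegfa with Flt1, 0.944 for Vegfa with Kdr, 0.955 for Vegfa with Vegfb, 0.964 for Flt1 with Flt4 and 0.938 for Flt1 with Kdr. It was then -0.885 for Nrp2 with Vegfa, -0.949 for Nrp2 with Kdr and 0.280 for Nrp1 with Nrp2, and that of Vegfd lay between -0.506 and 0.650, the highest being with Vegfc.

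Genes with the most similar pattern were sought among 9505 genes with a mean of at least 10 CPM, which leaves out Vegfc and Pgf. For Vegfa they were Gfod1 (r = 0.989), Npdc1 and Ushbp1, with 966 genes over 0.9, and for Vegfb Ablim1 (0.991), Arhgef28 and Afdn, with 917 over 0.9. For Flt1 they were Pcdh1 (0.992), Sema3g and Drosha, for Kdr Adgrf5 (0.986), F11r and Abcc9, and for Flt4 Slc25a23 (0.991), Wwc2 and Mical3, with 774, 808 and 949 genes over 0.9. Nrp2 was most like Fhl2 (0.990), Trim47 and Plcg2, with 1384 over 0.9. Against these crowded patterns Vegfd had 3 genes over 0.9: Glis3 (0.951), Adm (0.928), the gene of the vasodilator and lymphangiogenic peptide adrenomedullin, and Svep1 (0.909), a matrix protein gene of lymphatic development. Nrp1 had 0 genes over 0.9, and its nearest was Clic4 (0.803). Without HFD Vehicle 50 the nearest gene was still Ablim1 for Vegfb, Glis3 for Vegfd, Pcdh1 for Flt1 and Slc25a23 for Flt4. It became Fhod1 for Vegfa (0.990), Trim24 for Kdr (0.987), C4b for Nrp1 (0.949) and Plxna1 for Nrp2 (0.994), and the number of genes over 0.9 was 8 for Vegfd, 1 for Nrp1 and 685 to 1883 for the others.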

How the data were processed

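The deposited values are raw counts of reads per gene, in 2 tables of 6 libraries each (HFD with Chow, and HFD PCN with HFD Vehicle). The submitters' processing notes name HISAT2, HTSeq, DESeq2 and the build GRCm38 (mm10), and versions and strand setting are not given in the sources used here. HFD against Chow and HFD PCN against HFD Vehicle were each fitted on their own 6 libraries. The other comparisons used 1 fit of all 12 libraries, across both tables. Counts passed filterByExpr, were scaled by TMM and tested in edgeR 4.0.16 (quasi-likelihood F test, R 4.3.3), with Benjamini-Hochberg adjustment over all genes tested. DESeq2 1.42.0 and limma 3.58.1 (voom) were alternatives. Per-length levels used merged exon length in GENCODE. Ratios took log2 CPM (prior count 2) and exact two-sided permutation tests. Of each list up to 4 called genes with the smallest p in HFD against Chow could be named. For each member averaging at least 10 CPM, the 3 genes with the highest r could be named too. Lpl, Prox1, Lyve1, Tbx1, Ccl21a, Krt8 and Sox7 were named after their values were seen. Members and lists were chosen with earlier results of these data known. Levels per length and correlations without HFD Vehicle 50 were added after seeing the data. Only the edgeR fits of HFD against Chow and HFD PCN against HFD Vehicle were tested on simulated counts with known changes. Totals of 11090117 to 27408092 counts limit precision most for Pgf and Vegfc.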

Additional observations from a re-analysis of the deposited data

How the results depend on the processing

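The number of VEGF genes called in HFD against Chow stayed within 1.5 times of 7 under 9 alternatives and 6 fits that each left out 1 library. In HFD PCN against HFD it was 1 with DESeq2 and 4 on the own 6 libraries, in HFD Vehicle against HFD 3 with DESeq2, and in HFD PCN against Chow 8 on the own 6 libraries and 0 to 2 with 1 library left out. Genes called in all in HFD PCN against Chow numbered 4653 with DESeq2, 1457 with limma-voom and 4424 on the own 6 libraries, against 2774. The cause was not tested. No paired analysis was possible because the groups share no library numbers.

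Signs turned for small values. With library totals, added after seeing the data, HFD against Chow gave 0.043 for Vegfc and 0.23 for Nrp1, and HFD PCN against HFD 0.000595 for Pgf. Nrp1 in HFD against Chow was 0.064 without a filter and 0.021 in the fit of 12 libraries, and 0.021 in HFD Vehicle against HFD with upper quartile scaling. Vegfc in HFD PCN against HFD Vehicle was -0.014 with DESeq2 size factors, -0.028 with upper quartile scaling, -0.018 with a minimum of 1 CPM and -0.0051 with DESeq2, and Kdr 0.12 with limma-voom.

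With 1 library left out, Nrp1 in HFD against Chow ranged from -0.071 to 0.10 and the Flt1 to Kdr ratio from -0.031 to 0.19. In HFD PCN against HFD Vehicle the ranges were -0.84 to 0.83 for Vegfa, -0.55 to 0.50 for Vegfb, -0.11 to 0.24 for Vegfc, -0.64 to 0.57 for Flt1, -0.61 to 0.85 for Kdr, -1.03 to 0.54 for Flt4 and -0.31 to 0.12 for Nrp2. Ratios there ranged from -0.23 to 0.37 for Vegfa to Vegfb and -0.016 to 0.35 for Nrp1 to Nrp2. Relative to endothelial markers the ranges were -0.31 to 0.32 for Kdr, -0.50 to 0.15 for Nrp1 and -0.84 to 0.15 for Nrp2, and relative to adipocyte markers -0.59 to 0.31 for Vegfa and -0.36 to 0.042 for Vegfb. In HFD PCN against HFD they were -0.32 to 0.20 for Pgf and -0.0071 to 0.12 for Nrp1, and in HFD Vehicle against HFD -0.050 to 0.66 for Pgf, -0.081 to 0.055 for Nrp1 and -0.42 to 0.020 for Nrp2.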
